A study of Mus musculus with 26 samples.

Results

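Store-operated calcium entry was followed through 10 genes, taken by their symbols from the 46517 gene symbols of the deposited expression table: the channel genes Orai1, Orai2 and Orai3, the sensor genes Stim1 and Stim2, the inositol trisphosphate (IP3) receptor genes Itpr1, Itpr2 and Itpr3, and the calcium pump genes Atp2a2 and Atp2a3. All 10 were found and all 10 passed the filter on low values. RNA-seq had been performed on thymocytes from 3 T cell receptor (TCR) transgenic mouse lines on a C57/BL6 background. TG6tg H2b/d mice (C57/BL6 x B6.C-H2d/bByJ, with intact Rag genes) carry a TCR of low self-reactivity, F5tg Rag1KO mice a TCR of intermediate self-reactivity, and OT-1tg Rag2KO mice a TCR of high self-reactivity. The thymocytes were sorted by flow cytometry into 3 populations. CD4+CD8+CXCR4+CCR7- cells stood for early positive selection, CD4+CD8+CXCR4-CCR7+ cells for its late part, and mature CD8SP cells were taken as CD4-CD8+CXCR4-CCR7+. Each group had 3 biological replicates except late TG6 with 2, giving 26 libraries in 9 groups. The labels do not say which libraries of a line came from the same mouse. No mouse was treated, and no preselection or wild-type group was among the libraries. The labels give no age, and the promoter of each TCR transgene is not given in the sources used here. TG6 differs from the other lines in its intact Rag genes and its H2b/d haplotype as well as in its TCR, and OT-1 and F5 differ in the TCR and in which Rag gene is knocked out, so the contributions of these to a difference between lines cannot be told apart.

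When a TCR is engaged, phospholipase C gamma makes IP3, and IP3 receptors in the membrane of the endoplasmic reticulum (ER) let calcium out of that store. STIM proteins sense the emptied store and open ORAI channels in the plasma membrane, so that calcium flows in from outside and keeps calcineurin and the transcription factor NFAT active. SERCA pumps return calcium to the ER. In developing thymocytes, calcium signals accompany positive selection, the step at which CD4+CD8+ cells with a useful TCR survive and mature. The study's authors cite earlier work in which components of these store-operated channels appeared dispensable for that step. The libraries hold RNA only, and neither calcium flux nor protein was measured in them.

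The normalized totals of the 26 libraries ran from 16134786 to 18944173. The deposited values are normalized. Taking the most frequent low value of a library as the worth of 1 read gave an estimated 16161675 to 18345799 reads per library, but not all low values were whole multiples of it, so the reads behind single values are not known exactly. Of the sorting markers, mean Cd4 was lower in mature than in early cells of every line (22113 normalized counts in early TG6 and 222 in mature TG6) and mean Ccr7 was higher (147 and 12058 in the same order). The early cells were not alike between lines. Mean Ccr7 in early cells was 779 in OT-1, 147 in TG6 and 198 in F5, and mean Cd4 was 8026, 22113 and 13538. Whether early cells of the lines stood equally far along, and the part of this in the differences between lines below, was not tested. Mean Cxcr4 did not follow the sort throughout: it was 5161, 1079 and 1928 in early, late and mature TG6, 3505, 1701 and 2674 in F5, and 2022, 846 and 2160 in OT-1, so that mature cells sorted as CXCR4- had more of it than late cells in each line. Summed over 6 markers, B cell transcripts ran from 121 to 336 across all libraries, and the summed 8 myeloid markers from 87.8 to 350, of which Itgam was the largest part in early TG6 and F5. Red cell transcripts (6 markers) reached 1280 in early OT-1, 1102 in late OT-1 and 1165 in mature OT-1, against at most 355 in any TG6 library and 682 in any F5 library. The summed 5 dendritic cell markers ran from 26.7 to 240, with the highest value in mature TG6. Among early cells they were higher in OT-1 (80.1 to 184) than in TG6 (26.7 to 62.9) or F5 (36.9 to 54.2). Mean Siglech was 43.2 in early OT-1 against 6.14 in early TG6, and for the myeloid gene Lyz2 it was 57.6 against 14.9 and for Csf1r 27.0 against 3.08, while Itgam was lower at 75.7 against 220. The summed 8 markers of thymic epithelium and stroma ran from 1876 to 3674, mostly Pecam1, an endothelial gene that blood cells also express, at 1799 to 3627. Of the others, Col1a1 ran from 9.09 to 78.3, Epcam from 10.2 to 47.7 and Psmb11 from 8.88 to 42.3, and Krt5, Krt8, Foxn1 and Col3a1 reached at most 2.90. The part of these cells in the results below was not tested. The third mature TG6 library (replicate 3) stood apart: its correlation with the other mature TG6 libraries was 0.950 and 0.953, against 0.977 between those. It had 787 normalized counts of Ptcra, the pre-TCR alpha chain of immature thymocytes, against 94.9 and 94.5, and 461 of Cd4 against 129 and 77.1. Its Cd8a was lowest of the mature TG6 libraries at 21298 against 31943 and 30826. Called changes and shares that use it are therefore also given without it.

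The 250 bases before the start of the channel genes are shown first, because the 3 channel genes differed in their course: Orai1 rose from early to late cells of TG6 and F5, Orai3 rose from late to mature cells of all 3 lines, and Orai2 had no called change between stages. Promoter windows from RefSeq (GRCm38.p6) were matched for 8 of the 10 genes, all but Itpr1 and Atp2a2. The windows are chr5:123014824-123015073 on the plus strand for Orai1, chr5:136170657-136170906 on the minus strand for Orai2 and chr7:127769565-127769814 on the plus strand for Orai3. By the GENCODE model the end of the Orai2 window lies inside its first exon. Capitals mark matches, on either strand, to 5 short motifs: the GC box GGGCGG, the EGR core GTGGGCG (which can overlap the GC box by 5 letters), the NFAT core GGAAA, the E-box CAGGTG and the RUNX motif TGTGGT.
Orai1: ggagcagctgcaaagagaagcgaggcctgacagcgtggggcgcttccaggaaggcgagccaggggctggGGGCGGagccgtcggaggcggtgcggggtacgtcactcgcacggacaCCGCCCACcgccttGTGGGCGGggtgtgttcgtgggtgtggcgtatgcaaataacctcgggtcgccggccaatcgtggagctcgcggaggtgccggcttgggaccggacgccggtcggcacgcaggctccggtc
Orai2: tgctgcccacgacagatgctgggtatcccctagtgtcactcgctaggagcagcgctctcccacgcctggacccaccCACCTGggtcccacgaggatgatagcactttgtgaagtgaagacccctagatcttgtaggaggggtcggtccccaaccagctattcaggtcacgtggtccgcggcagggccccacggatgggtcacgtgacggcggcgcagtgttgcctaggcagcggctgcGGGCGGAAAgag
Orai3: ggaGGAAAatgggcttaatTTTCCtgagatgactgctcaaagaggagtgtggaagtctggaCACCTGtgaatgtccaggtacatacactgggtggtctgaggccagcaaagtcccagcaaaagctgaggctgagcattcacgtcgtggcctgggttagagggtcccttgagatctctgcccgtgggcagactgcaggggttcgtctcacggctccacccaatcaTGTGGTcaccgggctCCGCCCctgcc

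The Orai1 window was GC-rich at 70.8% and held 3 GC boxes and 2 EGR cores, with none of the other motifs. Orai2 (63.6% GC) held 1 GC box, 1 NFAT core and 1 E-box. Orai3 was the least GC-rich of the 3 at 57.2% and held 2 NFAT cores, 1 E-box, 1 RUNX motif and 1 GC box. Among all 32851 promoter windows of this length, 55.6% held the NFAT core, 32.7% the GC box, 17.2% the E-box, 14.0% the RUNX motif and 7.02% the EGR core. The median GC content of all windows was 52.4%. Among the other 5 windows, all held a GC box, Stim1 held 8, and the only EGR core outside Orai1 was in Stim1. These matches describe letters only, and binding was not measured.

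Per kilobase of exon (GENCODE vM21 gene models, GRCm38), the ER pump gene Atp2a3 was the highest of the 10, with a mean over the 9 groups of 2556 normalized counts per kilobase. Orai2 followed at 705, then Atp2a2 at 525, Itpr3 at 486, Itpr2 at 385, Stim1 at 270, Stim2 at 245 and Orai1 at 214. Itpr1 at 67.5 and Orai3 at 54.6 were lowest. The genes differed in how far they moved: the ratio of the highest to the lowest group mean was 4.98 for Orai3, 3.28 for Orai1, 2.77 for Itpr1 and 2.72 for Itpr2, but only 1.33 for Stim1 and 1.27 for Atp2a3.

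**Figure D1:**
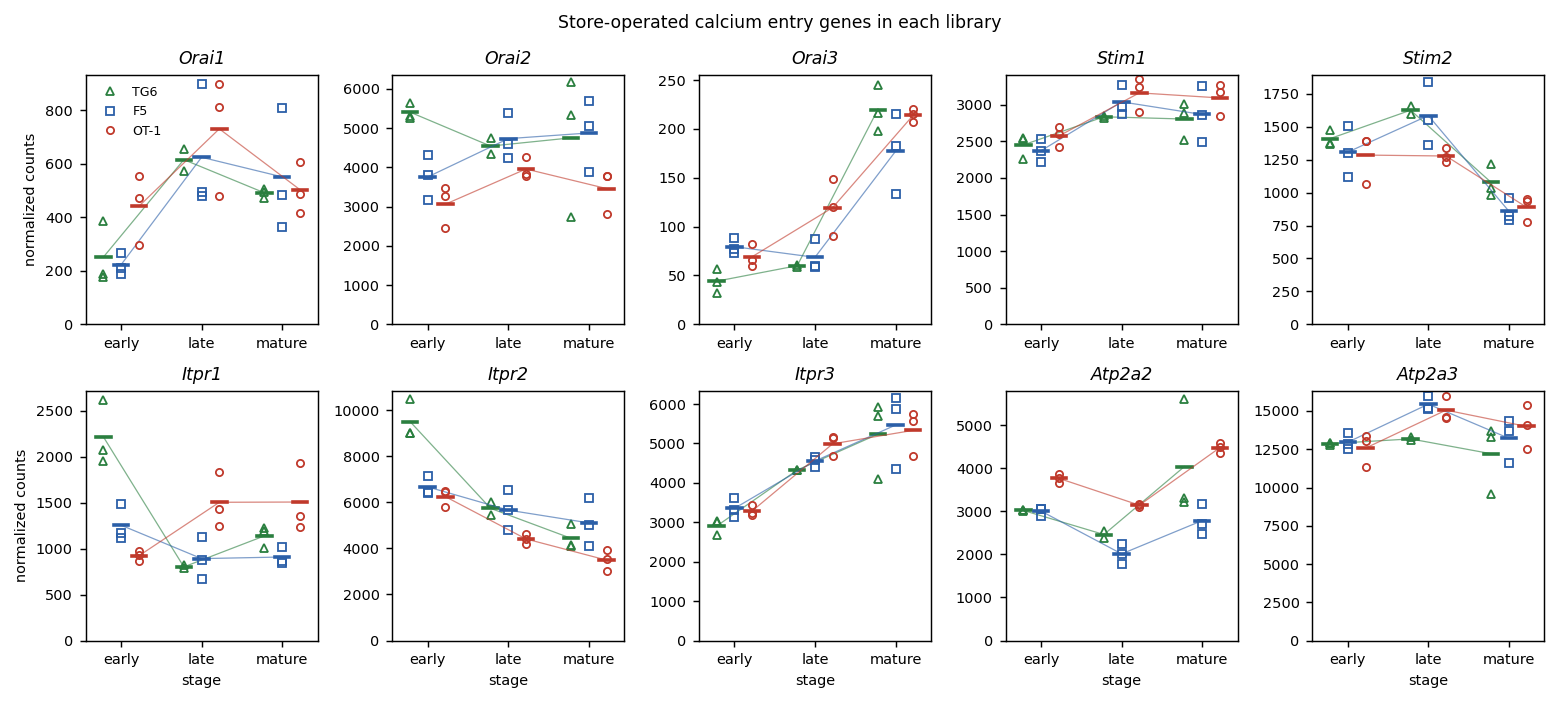
Normalized counts of the 10 genes (y axes, linear, from 0) at the early, late and mature stages (x axes) in TG6 (triangles), F5 (squares) and OT-1 (circles). Each symbol is a library and each bar a group mean, joined by thin lines. Itpr1 runs down from early to late in TG6, from a mean of 2216 to 801, and up in OT-1, from a mean of 920 to 1503, whereas Itpr3 runs up in all 3 lines.

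To ask how the lines differed at each stage, every gene was tested with limma and p-values were adjusted over all 16372 genes tested. At the early stage, 4 of the 10 genes differed between OT-1 and TG6, beside 27.8% of all genes tested, and 3 of 10 between F5 and TG6, beside 6.46% of all genes. At the late stage these counts were 2 of 10 (15.5% of all genes) for OT-1 against TG6 and 0 of 10 (4.97%) for F5 against TG6, where 0 of the 10 genes had an unadjusted limma p under 0.05. In mature CD8SP cells they were 0 of 10 (9.74%), with 2 of the 10 genes at an unadjusted p under 0.05, and 1 of 10 (6.64%). OT-1 differed from F5 in 0 of 10 genes at the early stage (12.7%; 3 genes at an unadjusted limma p under 0.05), 3 at the late stage (24.0%) and 3 in mature cells (23.3%). Comparisons at a stage share libraries, so their counts are not independent. Without mature TG6 replicate 3, the mature counts were 2 of 10 for OT-1 against TG6 (27.3% of all genes) and 0 of 10 for F5 against TG6 (8.63%).

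**Figure D2:**
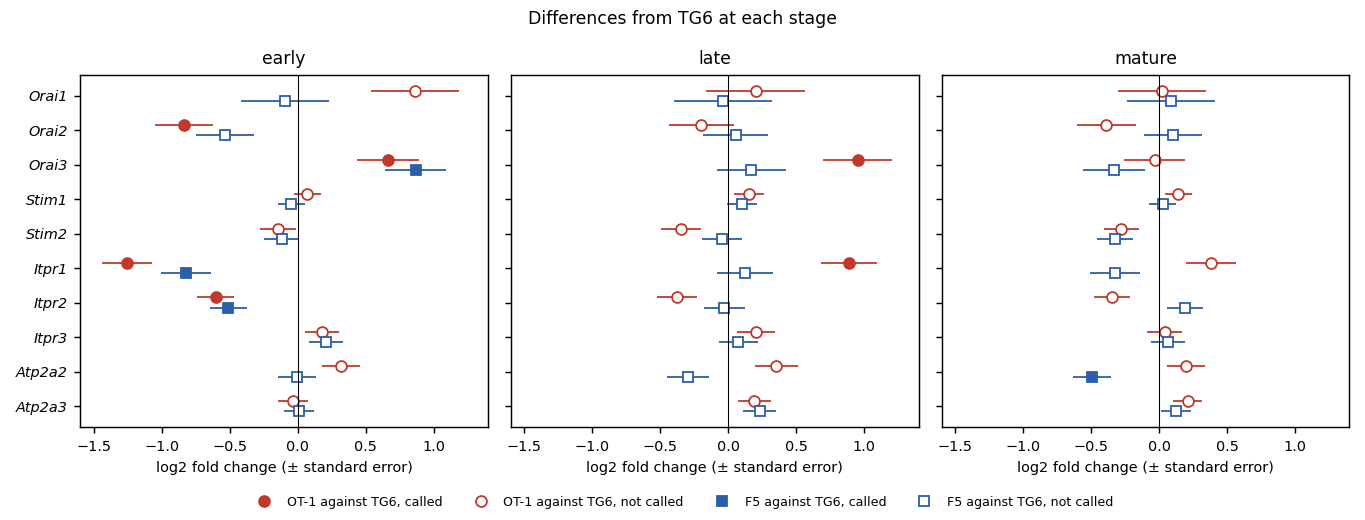
Log2 fold changes of the 10 genes (rows) in OT-1 (circles) and F5 (squares) against TG6 at each stage (panels), with standard errors from limma as bars. Filled symbols have an adjusted p below the 0.05 threshold. Itpr1 lies at -1.26 in early OT-1 and at 0.89 in late OT-1, on opposite sides of the zero line.

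The same test was made between stages within each line. From early to late, 4 of 10 genes changed in TG6 (25.4% of all genes tested), 5 in F5 (26.7%) and 5 in OT-1 (26.7%). From late to mature it was 3 of 10 in TG6 (22.3%), 3 in F5 (20.5%) and 3 in OT-1 (24.4%), and these were Orai3 and Atp2a2, higher, and Stim2, lower, in every line. From early to mature, 7 of 10 changed in TG6 (34.6%), 5 in F5 (19.6%) and 5 in OT-1 (23.2%). Itpr3 and Orai3 were higher, and Itpr2 and Stim2 lower, in mature than in early cells of all 3 lines. Without mature TG6 replicate 3, the TG6 counts were 5 of 10 from late to mature (17.2% of all genes) and 7 of 10 from early to mature (35.1%). With all libraries, the late to mature counts lay near the share of all genes called in the same comparison. In bulk samples, fewer cells of a type and less RNA per cell cannot be told apart.

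**Figure D3:**
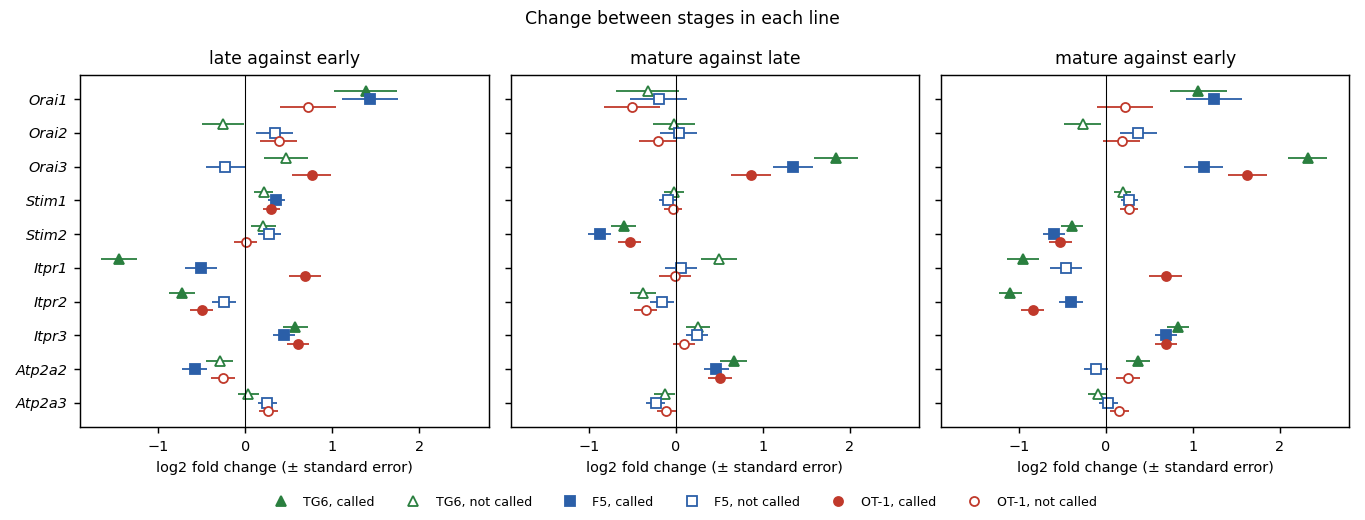
Log2 fold changes of the 10 genes (rows) between stages (panels) in TG6 (triangles), F5 (squares) and OT-1 (circles), with standard errors from limma as bars and filled symbols below the 0.05 threshold. Orai3 reaches 2.32 in mature against early TG6, and Itpr1 is at -1.46 in TG6 and 0.69 in OT-1 for late against early.

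Orai1 encodes the channel subunit that carries most store-operated calcium current in T cells, and its transcript rose from early to late positive selection. The early TG6 libraries had 177, 188 and 387 normalized counts of Orai1, and the late ones 574 and 657. In F5 the early values of 267, 189 and 212 gave way to 897, 494 and 481. Neither pair of groups overlapped. The log2 fold change was 1.38 ± 0.36 (SE) in TG6 (limma, adjusted p = 0.0063) and 1.44 ± 0.32 in F5 (limma, adjusted p = 0.0019). Without late TG6 replicate 2 the TG6 call was lost (1.29, limma adjusted p = 0.068). In OT-1 the early libraries were already at 471, 554 and 298, and the late ones at 814, 897 and 481, so that the groups overlapped. This difference of 0.72 ± 0.32 was not called (limma, adjusted p = 0.11), but was called without late OT-1 replicate 3 (1.00, limma adjusted p = 0.040). Each late OT-1 library lay above the early one of the same replicate number. With that number as a block the difference was called (limma, adjusted p = 0.0067), although the labels do not tie numbers to mice.

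Early OT-1 cells had higher Orai1 values than early TG6 or F5 cells by 0.86 ± 0.32 and 0.95 ± 0.32 on the log2 scale, short of the threshold (limma, adjusted p = 0.052 and 0.058). Without early TG6 replicate 3, whose 387 was the highest early TG6 value, the OT-1 against TG6 difference was 1.22 and was called (limma, adjusted p = 0.0099). Without early OT-1 replicate 3 both differences were called (1.12 against TG6 and 1.21 against F5, limma adjusted p = 0.023 and 0.026), and that against F5 also in the fit of the compared groups alone (limma, adjusted p = 0.027). In mature cells Orai1 was at 496, 507 and 472 in TG6, at 807, 364 and 481 in F5 and at 488, 605 and 417 in OT-1, and the 3 lines overlapped. Mature cells stayed above early cells in TG6 (1.06 ± 0.32, limma adjusted p = 0.013) and F5 (1.24 ± 0.32, limma adjusted p = 0.0081). The TG6 call was lost without early replicate 1 or 2 (0.86 and 0.90, limma adjusted p = 0.076 and 0.068) and kept without mature TG6 replicate 3 (1.09, limma adjusted p = 0.025). The F5 call was lost without mature replicate 1 (0.92, limma adjusted p = 0.071). The mature OT-1 value was 0.22 ± 0.32 from the early value (limma, adjusted p = 0.70).

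Orai2, a channel subunit that can assemble with ORAI1, was the most abundant of the family per kilobase in every group. Early TG6 cells had 5640, 5317 and 5262 normalized counts, early F5 cells 4315, 3794 and 3157, and early OT-1 cells 3259, 3468 and 2457. The OT-1 values all lay below the TG6 values, with a log2 difference of -0.84 ± 0.22 (limma, adjusted p = 0.0061), and this call was kept in all 6 leave-one-out fits. The F5 value lay between, at -0.54 ± 0.22 from TG6 (limma, adjusted p = 0.16; called at 0.016 in the fit of the compared groups alone) and overlapping OT-1 (OT-1 against F5, -0.30 ± 0.22, limma adjusted p = 0.41). At the late stage the means were 4541 in TG6, 4731 in F5 and 3958 in OT-1, and no pair of lines differed by the test.

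Mature Orai2 rested on a single library. Mature TG6 cells had 6178, 5346 and 2730 normalized counts, the last in replicate 3, against 3774, 3782 and 2822 in OT-1 and 5680, 3891 and 5055 in F5. With all libraries, OT-1 against TG6 was -0.39 ± 0.22 (limma, adjusted p = 0.26), and without replicate 3 of TG6 it was -0.75 (limma, adjusted p = 0.0026). Against F5, mature OT-1 was -0.49 ± 0.22 (limma, adjusted p = 0.10), called without mature F5 replicate 2 (-0.64, limma adjusted p = 0.049) and after scaling to equal totals (-0.63, limma adjusted p = 0.036). No change of Orai2 between stages was called in any line, although late TG6 was called below early TG6 (-0.25, limma adjusted p = 0.027) when only those groups were fitted.

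Orai3, the third channel subunit, was the least abundant per kilobase and changed most. In TG6 it was at 32.0, 56.8 and 43.7 normalized counts in early cells, 61.1 and 59.0 in late cells, and 245, 217 and 198 in mature cells. In F5 the early libraries had 73.3, 76.7 and 88.4, the late ones 59.9, 59.0 and 86.9, and the mature ones 133, 183 and 215. In OT-1 these were 65.4, 60.2 and 81.9, then 120, 90.4 and 149, then 207, 215 and 220. Every mature library lay above every early and late library of the same line. From late to mature, Orai3 rose by 1.85 ± 0.25 on the log2 scale in TG6, 1.35 ± 0.23 in F5 and 0.86 ± 0.23 in OT-1 (limma, adjusted p = 2.0e-05, 0.00017 and 0.0082), and the OT-1 call was lost without late replicate 2 (0.68, limma adjusted p = 0.059). In mature against early cells it rose by 2.32 ± 0.23, 1.12 ± 0.23 and 1.63 ± 0.23 (limma, adjusted p = 3.5e-08, 0.00095 and 1.4e-05), and these calls were kept in every leave-one-out fit. The TG6 rises of Orai3 were 1.92 and 2.39 without mature TG6 replicate 3.

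At the first step the change of Orai3 was called in OT-1. There it was higher in late than in early cells (0.76 ± 0.23, limma adjusted p = 0.016), a call lost without early replicate 2 or late replicate 3 (0.67 and 0.59, limma adjusted p = 0.066 and 0.087), whereas TG6 and F5 were at 0.47 ± 0.25 and -0.23 ± 0.23 (limma, adjusted p = 0.20 and 0.51). The OT-1 change differed from the F5 change by 0.99 ± 0.32, which was not called (limma, adjusted p = 0.15). At the late stage OT-1 stood above TG6 by 0.95 ± 0.25 and above F5 by 0.79 ± 0.23 (limma, adjusted p = 0.013 and 0.014), and no late OT-1 library overlapped the other lines. The call against TG6 was lost without late TG6 replicate 1 or 2 or late OT-1 replicate 3 (0.98, 0.93 and 0.78, limma adjusted p = 0.078, 0.10 and 0.059), and the call against F5 without late F5 replicate 2 or late OT-1 replicate 3 (0.69 and 0.62, limma adjusted p = 0.065 and 0.082) and when only the compared groups were fitted (limma, adjusted p = 0.075).

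In early cells Orai3 was lower in TG6 than in F5 and OT-1. F5 stood 0.87 ± 0.23 and OT-1 0.66 ± 0.23 above TG6 on the log2 scale (limma, adjusted p = 0.022 and 0.034). Both calls were kept in only 2 of 6 leave-one-out fits. Against F5 the call was lost without early TG6 replicate 1 or 3 or early F5 replicate 2 or 3 (0.66, 0.88, 0.89 and 0.79, limma adjusted p = 0.14, 0.064, 0.058 and 0.095). Against OT-1 it was lost without early TG6 replicate 1 or 3 or early OT-1 replicate 1 or 3 (0.45, 0.67, 0.70 and 0.54, limma adjusted p = 0.19, 0.063, 0.061 and 0.13). The OT-1 call was also lost without the filter on low values (limma, adjusted p = 0.051), after scaling to equal totals (0.55, limma adjusted p = 0.084) and in the fit of the compared groups alone (limma, adjusted p = 0.092), and the F5 call in that last fit (limma, adjusted p = 0.061). In mature cells the values of the 3 lines overlapped. The rise from early to mature was smaller in F5 than in TG6 by 1.20 ± 0.32 (limma, adjusted p = 0.035), 1 of the 2 genes called in this difference of changes, beside 4.40% of all genes. That call was kept in 4 of 12 leave-one-out fits, where the difference ran from -1.39 to -0.99 (-1.27 without mature TG6 replicate 3) and the adjusted limma p from 0.019 to 0.10; it was lost without early TG6 replicate 1 or 3, mature TG6 replicate 1 or 2, any early F5 library or mature F5 replicate 1. It was also lost without the filter (limma, adjusted p = 0.053), after scaling to equal totals (limma, adjusted p = 0.056) and in the fit of the compared groups alone (limma, adjusted p = 0.11).

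The mix of channel transcripts moved with these changes. As a share of the Orai counts per kilobase, Orai2 made up 87.3% ± 4.66 (SD, n = 3) in early TG6, 82.0% ± 2.30 in early F5 and 69.4% ± 1.36 in early OT-1. Orai1 made up 10.6% ± 4.66 of early TG6 and 26.0% ± 3.07 of early OT-1, and no early TG6 library overlapped an early OT-1 library. By the mature stage the Orai3 share had grown from 2.03% ± 0.621 to 9.76% ± 2.26 in TG6 (8.46% without mature TG6 replicate 3) and from 4.67% ± 1.78 to 11.4% ± 2.00 in OT-1. The F5 share of Orai3 went from 5.04% ± 1.19 to 7.69% ± 2.69, and its early and mature libraries overlapped. The shares are descriptions and were not tested.

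**Figure D4:**
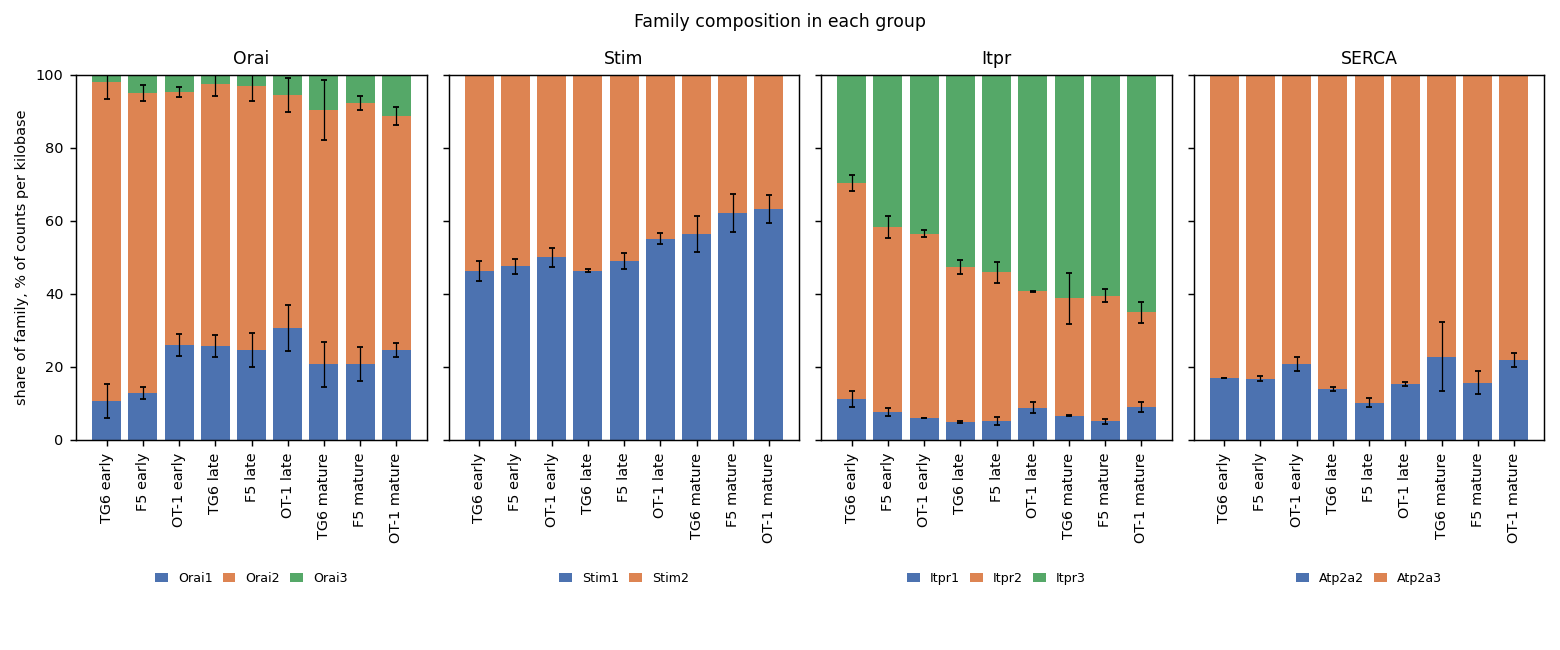
Share of each gene in its family's summed normalized counts per kilobase (y axis, percent) in the 9 groups (x axis), as group means with error bars at each boundary for the SD over libraries of the gene below it. The Itpr3 share grows from 29.7% in early TG6 to 61.2% in mature TG6, and the Itpr2 share shrinks from 59.1% to 32.2%.

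Stim1, the main ER calcium sensor that opens ORAI channels, kept between 2222 and 3355 normalized counts in all 26 libraries. It rose modestly from early to late in F5, from 2530, 2362 and 2222 to 3270, 2876 and 2969 (0.36 ± 0.10, limma adjusted p = 0.0091), and in OT-1, from 2596, 2700 and 2421 to 3355, 3234 and 2894 (0.30 ± 0.10, limma adjusted p = 0.029). The groups did not overlap in either line. The OT-1 call was lost without early replicate 1 or 3 or late replicate 1 or 2 (0.30, 0.25, 0.25 and 0.28, limma adjusted p = 0.060, 0.12, 0.12 and 0.088). In TG6 the late libraries, at 2849 and 2819, lay above the early ones at 2262, 2537 and 2550, but the difference of 0.21 ± 0.11 was not called (limma, adjusted p = 0.18). Mature cells were 0.19 to 0.27 above early cells on the log2 scale, uncalled in all 3 lines (limma, adjusted p = 0.14, 0.062 and 0.057 in TG6, F5 and OT-1). With the replicate number as a block this step was called in F5 and OT-1 (limma, adjusted p = 0.015 and 0.013). It was also called without TG6 mature replicate 3 in TG6 (0.27, limma adjusted p = 0.045), without F5 mature replicate 2 in F5 (0.36, limma adjusted p = 0.013) and without OT-1 mature replicate 3 in OT-1 (0.32, limma adjusted p = 0.039). The fit of the compared groups alone called it in OT-1 too (0.26, limma adjusted p = 0.042). No difference of Stim1 between lines was called at any stage.

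Stim2, the sensor that responds to smaller falls in ER calcium, fell at the last step, where no change of Stim1 was called. The late libraries had 1656 and 1594 normalized counts in TG6, 1843, 1362 and 1548 in F5, and 1268, 1335 and 1229 in OT-1. The mature ones had 1036, 982 and 1214 in TG6, 824, 958 and 793 in F5, and 949, 779 and 938 in OT-1. Within each line every mature library lay below every late library. Stim2 fell by 0.60 ± 0.15 on the log2 scale in TG6, by 0.88 ± 0.13 in F5 and by 0.53 ± 0.13 in OT-1 (limma, adjusted p = 0.0050, 5.0e-05 and 0.0055). The TG6 call was lost without late replicate 1 (-0.57, limma adjusted p = 0.053) and when only the TG6 groups compared were fitted (limma, adjusted p = 0.063). Against early cells, which had 1478, 1380 and 1371 in TG6, 1504, 1298 and 1119 in F5 and 1394, 1392 and 1068 in OT-1, mature Stim2 was also lower, by -0.39 ± 0.13, -0.60 ± 0.13 and -0.53 ± 0.13 (limma, adjusted p = 0.023, 0.0019 and 0.0048). The TG6 value was not called without early replicate 1 or mature replicate 1 or 2 (-0.36, -0.37 and -0.33, limma adjusted p = 0.078, 0.068 and 0.093). Without mature TG6 replicate 3 the TG6 values of Stim2 were -0.69 against late and -0.48 against early cells, both called (limma, adjusted p = 0.0031 and 0.0099). Stim1 thus made up 46.2% ± 2.71 of the Stim counts per kilobase in early TG6 and 56.3% ± 4.94 in mature TG6 (59.1% without replicate 3), and 49.9% ± 2.59 and 63.3% ± 3.82 in OT-1. Not divided by length, the early TG6 means were 2450 for Stim1 and 1409 for Stim2. Lines did not differ in Stim2 by the test, although after scaling to equal totals late OT-1 was called below TG6 (-0.49, limma adjusted p = 0.018) and F5 (-0.38, limma adjusted p = 0.028), and below TG6 also in the fit of the compared groups alone (-0.35, limma adjusted p = 0.026).

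Among the IP3 receptors, which release calcium from the ER, Itpr1 was the gene whose order across the lines turned over. In early cells TG6 was highest, with 1956, 2073 and 2618 normalized counts, F5 was next with 1483, 1110 and 1169, and OT-1 was lowest with 975, 925 and 860. None of these groups overlapped. At the late stage OT-1 was highest, with 1836, 1246 and 1427, and TG6 had 784 and 818 and F5 668, 875 and 1129. Every late OT-1 library lay above every late TG6 and F5 library. In mature cells OT-1 had 1235, 1932 and 1350, TG6 1188, 1222 and 1004, and F5 844, 867 and 1013, with the OT-1 libraries again above all others.

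Early OT-1 cells had less Itpr1 than early TG6 cells by -1.26 ± 0.18 on the log2 scale (limma, adjusted p = 2.7e-05), a call kept in all 6 leave-one-out fits, with values from -1.34 to -1.13. Early F5 cells lay -0.82 ± 0.18 from TG6 (limma, adjusted p = 0.0075), a call lost without early TG6 replicate 3 (-0.69, limma adjusted p = 0.061). The early difference between OT-1 and F5 was -0.44 ± 0.18 (limma, adjusted p = 0.13; called at 0.041 in the fit of the compared groups alone). Late OT-1 cells had more Itpr1 than late TG6 cells by 0.89 ± 0.21 (limma, adjusted p = 0.0048; 0.86 and adjusted p = 0.055 without late TG6 replicate 1) and than late F5 cells by 0.77 ± 0.18 (limma, adjusted p = 0.0040). In mature cells the difference was called against F5 (0.71 ± 0.18, limma adjusted p = 0.0088), though not without mature OT-1 replicate 2 (0.51, limma adjusted p = 0.069), and was 0.38 ± 0.18 against TG6 (limma, adjusted p = 0.20).

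Within lines, in late against early cells Itpr1 fell by 1.46 ± 0.21 on the log2 scale in TG6 (limma, adjusted p = 1.3e-05) and rose by 0.69 ± 0.18 in OT-1 (limma, adjusted p = 0.0078; 0.54 and adjusted p = 0.060 without late OT-1 replicate 1). In F5 the difference was -0.51 ± 0.18 (limma, adjusted p = 0.043), where early and late libraries overlapped and the call was kept in 2 of 6 leave-one-out fits. It was lost without early F5 replicate 1 or 3 or late F5 replicate 1 or 2 (-0.39, -0.56, -0.32 and -0.52, limma adjusted p = 0.18, 0.065, 0.23 and 0.081) without the filter (limma, adjusted p = 0.070), in the fit of the compared groups alone (limma, adjusted p = 0.11) and with the replicate number as a block (limma, adjusted p = 0.053). In mature against early cells, TG6 fell by 0.95 ± 0.18 (limma, adjusted p = 0.00028) and OT-1 rose by 0.68 ± 0.18 (limma, adjusted p = 0.0087; 0.49 and adjusted p = 0.079 without mature OT-1 replicate 2), while F5 was at -0.46 ± 0.18 (limma, adjusted p = 0.091). The TG6 value was -0.87 without mature TG6 replicate 3 (limma, adjusted p = 0.0020). No change of Itpr1 from late to mature was called.

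The difference between lines in these changes was itself tested. The early to late change of Itpr1 was higher in OT-1 than in TG6 by 2.15 ± 0.28 on the log2 scale (limma, adjusted p = 0.00012), where 2.04% of all genes were called, and the call was kept in all 11 leave-one-out fits (1.99 to 2.27). It was higher in OT-1 than in F5 by 1.20 ± 0.26 (limma, adjusted p = 0.019; 1.68% of all genes called), and lost without late OT-1 replicate 1 (1.05, limma adjusted p = 0.068). For early to mature the differences were 1.64 ± 0.26 against TG6 (limma, adjusted p = 0.00046; 4.20% of all genes called), kept in all 12 leave-one-out fits (1.55 without mature TG6 replicate 3), and 1.14 ± 0.26 against F5 (limma, adjusted p = 0.025; 1.64% of all genes called). The last was lost without early F5 replicate 1, mature F5 replicate 1, early OT-1 replicate 2 or 3, or mature OT-1 replicate 2 (1.02, 1.09, 1.15, 1.10 and 0.95, limma adjusted p = 0.071, 0.067, 0.056, 0.054 and 0.087). Itpr1 was the only gene of the 10 called in each of these 4 tests, in which the early libraries are shared. F5 against TG6 gave 0.94 ± 0.28 for early to late, not called (limma, adjusted p = 0.086), and in this comparison 0 of the 10 genes were called, 2 had an unadjusted limma p under 0.05, and 2.08% of all genes were called. Without late F5 replicate 1 it was called (1.13, limma adjusted p = 0.024).

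Itpr2, the IP3 receptor with the highest affinity for IP3, fell during development. TG6 cells had 10469, 9022 and 9027 normalized counts at the early stage, 6027 and 5448 at the late stage and 4139, 4101 and 5069 when mature. F5 cells had 6386, 6463 and 7155, then 5646, 4797 and 6539, then 5014, 4097 and 6206. OT-1 cells had 6482, 6454 and 5796, then 4619, 4420 and 4189, then 3014, 3922 and 3536. The TG6 and OT-1 stages followed each other without overlap, whereas neighbouring stages overlapped in F5. From early to mature, Itpr2 fell by 1.10 ± 0.13 in TG6, 0.40 ± 0.13 in F5 and 0.85 ± 0.13 in OT-1 on the log2 scale (limma, adjusted p = 8.3e-07, 0.036 and 6.0e-05). The TG6 and OT-1 calls were kept without each library in turn (TG6 at -1.20 without mature replicate 3), and the F5 call in 1 of 6 such fits. The F5 call was lost without any early F5 library (-0.43, -0.43 and -0.35, limma adjusted p = 0.057, 0.068 and 0.14) and without mature F5 replicate 1 or 2 (-0.40 and -0.26, limma adjusted p = 0.087 and 0.20), without the filter (limma, adjusted p = 0.063) and in the fit of the compared groups alone (limma, adjusted p = 0.10). The fall was already called between early and late in TG6 (-0.73 ± 0.15, limma adjusted p = 0.00081) and OT-1 (-0.50 ± 0.13, limma adjusted p = 0.0077).

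From late to mature, Itpr2 was at -0.38 ± 0.15 in TG6 and -0.34 ± 0.13 in OT-1 (limma, adjusted p = 0.077 and 0.065). These were called after scaling to equal totals (limma, adjusted p = 0.019 and 0.026), and without TG6 mature replicate 3 (-0.48, limma adjusted p = 0.039) or OT-1 mature replicate 2 (-0.43, limma adjusted p = 0.045). The OT-1 fall was also called in the fit of the compared groups alone (limma, adjusted p = 0.035). With the replicate number as a block it was called as well (limma, adjusted p = 0.015). Between lines, early TG6 cells had more Itpr2 than early OT-1 cells (OT-1 against TG6, -0.60 ± 0.13, limma adjusted p = 0.0019) and than early F5 cells (F5 against TG6, -0.51 ± 0.13, limma adjusted p = 0.023). The first call was kept in all 6 leave-one-out fits, and the second was lost without early TG6 replicate 1 or early F5 replicate 1 or 2 (-0.44, -0.48 and -0.49, limma adjusted p = 0.11, 0.086 and 0.083). Mature OT-1 cells were below mature F5 cells by -0.54 ± 0.13 (limma, adjusted p = 0.0063), which was lost without mature F5 replicate 3 (-0.39, limma adjusted p = 0.059) and in the fit of the compared groups alone (limma, adjusted p = 0.054). The late OT-1 value was -0.35 ± 0.13 from F5 (limma, adjusted p = 0.062), called without late F5 replicate 2 (-0.46, limma adjusted p = 0.026) and after scaling to equal totals (-0.43, limma adjusted p = 0.019). It was -0.38 ± 0.15 from TG6 without overlap (limma, adjusted p = 0.093), called after scaling to equal totals (-0.52, limma adjusted p = 0.017) and in the fit of the compared groups alone (limma, adjusted p = 0.017). Mature OT-1 was called below TG6 after scaling to equal totals (-0.44, limma adjusted p = 0.035). The early to mature fall was smaller in F5 than in TG6 by 0.70 ± 0.19 (limma, adjusted p = 0.037). This call was kept in 3 of 12 leave-one-out fits, with values from 0.55 to 0.85 and an adjusted limma p from 0.0076 to 0.12; the 3 fits were those without early F5 replicate 3, mature F5 replicate 2 or mature TG6 replicate 3 (the last at 0.80). It was also lost without the filter (limma, adjusted p = 0.063) and in the fit of the compared groups alone (limma, adjusted p = 0.12).

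Itpr3, the third IP3 receptor gene, rose in every line as Itpr2 fell. Early libraries had 3025, 3001 and 2689 normalized counts in TG6, 3612, 3125 and 3320 in F5 and 3438, 3245 and 3178 in OT-1. Late libraries had 4323 and 4327, then 4585, 4408 and 4666, then 5128, 5153 and 4691 in the same order. Every late library lay above every early library, whatever the line. The rise was 0.58 ± 0.14, 0.44 ± 0.13 and 0.60 ± 0.13 on the log2 scale (limma, adjusted p = 0.0036, 0.011 and 0.0011), and Itpr3 was the only gene of the 10 called in the same direction at this step in all 3 lines. The F5 call was lost without early F5 replicate 2 (0.39, limma adjusted p = 0.053). Mature libraries ran from 4095 to 6164, with the lowest value in TG6 replicate 3, and from early to mature the rise was 0.83 ± 0.13, 0.69 ± 0.13 and 0.69 ± 0.13 (limma, adjusted p = 1.5e-05, 0.00032 and 0.00026). Without that TG6 library the TG6 rise was 1.00 (limma, adjusted p = 4.3e-07). From late to mature no rise was called in the fit without the block (0.26, 0.25 and 0.09). It was called with the replicate number as a block in F5 (limma, adjusted p = 0.040), without mature TG6 replicate 3 in TG6 (0.42, limma adjusted p = 0.022) and without mature F5 replicate 2 in F5 (0.40, limma adjusted p = 0.029). Lines did not differ in Itpr3 by the test at any stage.

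These movements exchanged the leading receptor transcript. Per kilobase, Itpr2 made up 59.1% ± 2.11 (SD, n = 3) of Itpr counts in early TG6, 50.6% ± 2.95 in early F5 and 50.4% ± 1.02 in early OT-1. In mature cells these shares were 32.2% ± 6.97, 34.4% ± 1.75 and 26.0% ± 2.89, and Itpr3 held 61.2% ± 6.84, 60.6% ± 2.00 and 65.1% ± 3.85. Without replicate 3, mature TG6 had 28.2% Itpr2 and 65.2% Itpr3. The summed Itpr counts per kilobase changed less, from 1085 ± 55.6 to 942 ± 79.7 in TG6 (988 without replicate 3) and from 837 ± 41.6 to 909 ± 88.9 in OT-1. Itpr1 stayed the smallest share in all groups, at 4.80% to 11.2%.

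Of the SERCA pumps that refill the ER, Atp2a2 (SERCA2, the widely expressed form) dipped at the late stage. Early, late and mature libraries had 3063, 3066 and 2892, then 2009, 2241 and 1789, then 2702, 3173 and 2485 normalized counts in F5. In OT-1 they had 3776, 3653 and 3876, then 3183, 3102 and 3148, then 4366, 4502 and 4578. In TG6 they had 3038, 3026 and 3002, then 2371 and 2554, then 3300, 3216 and 5612. In all 3 lines the late libraries lay below both other stages. The fall from early to late was called in F5 (-0.58 ± 0.14, limma adjusted p = 0.0032), and was -0.30 ± 0.16 in TG6 and -0.26 ± 0.14 in OT-1 (limma, adjusted p = 0.19 and 0.18). When only the compared groups were fitted, the last 2 were called as well (limma, adjusted p = 0.012 and 0.017).

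From late to mature, Atp2a2 rose in all 3 lines, by 0.67 ± 0.16, 0.47 ± 0.14 and 0.51 ± 0.14 on the log2 scale in TG6, F5 and OT-1 (limma, adjusted p = 0.0037, 0.020 and 0.011). The TG6 call was lost without late TG6 replicate 1 (0.61, limma adjusted p = 0.051) and in the fit of the compared groups alone (limma, adjusted p = 0.18), and without mature replicate 3 its value was 0.40. The F5 call was lost without late F5 replicate 3 or mature F5 replicate 2 (0.39 and 0.37, limma adjusted p = 0.11 and 0.12) and in the fit of the compared groups alone (limma, adjusted p = 0.067). Early to mature was called in TG6 (0.37 ± 0.14, limma adjusted p = 0.045), where 2 of 6 leave-one-out fits kept the call. It was lost without the filter (limma, adjusted p = 0.074), after scaling to equal totals (0.28, limma adjusted p = 0.11) and in the fit of the compared groups alone (limma, adjusted p = 0.24). Without mature replicate 3 this value was 0.11 (limma, adjusted p = 0.39), and without early replicate 1, 2 or 3 it was 0.37, 0.37 and 0.37 (limma, adjusted p = 0.089, 0.092 and 0.091). The other lines were not called for early to mature. Over leave-one-out fits F5 ran from -0.21 to -0.04 and OT-1 from 0.23 to 0.27. In the fit of the compared groups alone OT-1 was called (0.25, limma adjusted p = 0.019).

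OT-1 cells had more Atp2a2 than F5 cells at the late stage (0.65 ± 0.14, limma adjusted p = 0.0016) and in mature cells (0.69 ± 0.14, limma adjusted p = 0.0013), and both calls were kept in all 6 leave-one-out fits. The early difference was 0.33 ± 0.14 (limma, adjusted p = 0.14), although the early OT-1 libraries lay above all F5 and TG6 ones. In the fit of the compared groups alone, OT-1 was called above F5 in early cells (limma, adjusted p = 0.014) and above TG6 in early and late cells (0.32 and 0.35, limma adjusted p = 0.0051 and 0.016). Against TG6, mature OT-1 was 0.20 ± 0.14 (limma, adjusted p = 0.39), and 0.46 (limma, adjusted p = 0.00077) without mature TG6 replicate 3. Mature F5 was called below TG6 (-0.49 ± 0.14, limma adjusted p = 0.034), and this was lost without mature TG6 replicate 3 (-0.23, limma adjusted p = 0.13), without mature F5 replicate 1 or 3 (-0.48 and -0.42, limma adjusted p = 0.099 and 0.16), without the filter (limma, adjusted p = 0.056), after scaling to equal totals (-0.44, limma adjusted p = 0.051) and in the fit of the compared groups alone (limma, adjusted p = 0.51).

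Atp2a3 (SERCA3, typical of blood cells) was called in none of the 24 comparisons. It had between 9607 and 16004 normalized counts, the lowest in mature TG6 replicate 3, and the other mature TG6 libraries were at 13690 and 13322. Late F5 (15156, 15181 and 16004) and late OT-1 (15997, 14572 and 14601) were above early F5 and early OT-1 without overlap, by 0.25 ± 0.11 and 0.26 ± 0.11 on the log2 scale (limma, adjusted p = 0.093 and 0.083). Both were called in the fit of the compared groups alone (limma, adjusted p = 0.041 and 0.039), and with the replicate number as a block (limma, adjusted p = 0.032 and 0.028). Atp2a3 made up between 77.2% ± 9.43 (SD, n = 3; mature TG6) and 89.8% ± 1.26 (late F5) of the SERCA counts per kilobase. Without replicate 3 the mature TG6 share was 82.7%, and the lowest group was then mature OT-1 at 78.1% ± 2.00.

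Around the 10 genes, a list of 81 further genes of calcium handling was followed, of which 80 were in the table and 68 were tested. In early cells 22 were higher and 8 lower in OT-1 than in TG6, which is 44.1% of those tested against 27.8% of all genes, with a median log2 difference of 0.19. The 22 include Ryr2, which passed the filter on low values only through OT-1 libraries, and without it 21 of 67 were higher and 8 lower (43.3%). At the late stage 9 were higher and 9 lower (26.5% against 15.5% of all genes), and in mature cells 7 higher and 3 lower (14.7% against 9.74%). The mature count rested on TG6 replicate 3: without it 19 were higher and 4 lower (33.8% against 27.3% of all genes). Between early and mature cells, 26 rose and 11 fell in TG6 (54.4% against 34.6% of all genes; 26 and 12 without mature replicate 3), 14 rose and 6 fell in F5 (29.4% against 19.6%), and 19 rose and 7 fell in OT-1 (38.2% against 23.2%).

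Among the roles on this list were 8 ER calcium-binding chaperones. In mature against early cells, 8 of 8 rose in TG6 (34.6% of all genes called), 6 of 8 in OT-1 (23.2%) and 1 of 8 in F5 (19.6%), with median log2 changes of 0.60, 0.49 and 0.27. Without mature TG6 replicate 3 it was 7 of 8 in TG6, with a median of 0.53. OT-1 exceeded F5 in 7 of 8 at the early stage (12.7% of all genes called), 6 of 8 at the late stage (24.0%) and 7 of 8 in mature cells (23.3%). Against TG6, OT-1 was higher in 5, 0 and 1 of 8 at these stages (27.8%, 15.5% and 9.74% of all genes called), and F5 was lower in 1, 2 and 4 of 8 (6.46%, 4.97% and 6.64%), with a median log2 difference of -0.61 in mature F5. Without mature TG6 replicate 3, 4 of 8 were higher in mature OT-1 than in TG6 (27.3% of all genes called) and 3 of 8 lower in mature F5 (8.63%; median -0.46). Hspa5, the ER chaperone BiP, had a mean of 7230 ± 1042 (SD, n = 3) normalized counts in early OT-1 and 3836 ± 362 in early TG6, a log2 difference of 0.91 ± 0.25 (SE; limma, adjusted p = 0.0086). Pdia4, a protein disulfide isomerase, differed by 0.62 ± 0.16 (limma, adjusted p = 0.0072).

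Upstream, among 10 genes of IP3 production and removal, 1 was higher and 2 lower in early OT-1 than in early TG6 (30.0%, near the 27.8% of all genes). Plcg2, a phospholipase C gamma, was low at 53.9 ± 11.6 (SD, n = 3) against 18.0 ± 6.25 normalized counts (1.57 ± 0.35 on the log2 scale, limma adjusted p = 0.0019). Plcg1, the abundant phospholipase C gamma, named here after its values were seen, was lower at 5657 against 8596 (-0.60 ± 0.13, limma adjusted p = 0.0011). Inpp5a, which removes a phosphate from IP3, was also lower at 170 ± 22.0 against 260 ± 42.8 (-0.61 ± 0.20, limma adjusted p = 0.028). Of 8 tested partners of IP3 receptors 2 were higher, a share below that of all genes. Bcl2, the survival factor that also binds IP3 receptors, had 1427 ± 57.7 against 625 ± 114 (1.21 ± 0.18, limma adjusted p = 2.5e-05), and Itpripl2 had 14.0 ± 6.15 against 4.93 ± 1.76 (1.28 ± 0.42, limma adjusted p = 0.025). Of 7 other tested ER release and pump genes 3 were higher and 1 lower (57.1% with Ryr2 counted, against 27.8% of all genes). They included the ryanodine receptor genes Ryr1, at 18.3 ± 3.35 against 7.22 ± 1.55 (1.23 ± 0.33, limma adjusted p = 0.0081), and Ryr2, at 8.03 to 18.0 in early OT-1 against 0.968 to 0.994 in early TG6. Ryr2 is among the 3, but it passed the filter on low values only through 4 OT-1 libraries, so its values are given without a test.

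Among 11 tested regulators of STIM and ORAI, 3 were higher and 1 lower in early OT-1 than in early TG6 (36.4% against 27.8% of all genes). Rap1b, a small GTPase, had 6844 ± 274 (SD, n = 3) against 4212 ± 116 normalized counts (0.70 ± 0.07, limma adjusted p = 2.6e-07), and Sept4, a septin, had 85.2 ± 13.0 against 191 ± 17.4 (-1.16 ± 0.29, limma adjusted p = 0.0046). Of 9 genes of mitochondrial calcium uptake 2 were higher and 2 lower (44.4%), among them Mcur1, a regulator of the uniporter, at 640 ± 90.3 against 287 ± 19.9 (1.15 ± 0.15, limma adjusted p = 4.8e-06), and Ccdc109b, a uniporter subunit also called Mcub, at 66.9 ± 5.45 against 32.4 ± 3.97 (1.03 ± 0.28, limma adjusted p = 0.0086). Of 3 tested genes of calcium export across the plasma membrane 1 was lower, the pump gene Atp2b4, at 99.3 ± 76.1 against 248 ± 22.0 (-1.56 ± 0.48, limma adjusted p = 0.019). Downstream, 6 of 12 tested genes of calmodulin and calcineurin signalling were higher and 1 lower (58.3%). Camk2d, a calmodulin-dependent kinase, had 2748 ± 142 against 1226 ± 154 (1.17 ± 0.14, limma adjusted p = 2.4e-06). In early F5, mean Plcg2, Itpripl2 and Ccdc109b were above both other lines, at 90.9, 19.7 and 97.1 normalized counts. Early F5 means of Rap1b, Sept4, Bcl2, Ryr1, Pdia4, Mcur1 and Atp2b4 lay between OT-1 and TG6. Those of Camk2d (1221) and Inpp5a (260) were near TG6, and that of Hspa5 (2810) was below it.

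Over the 9 group means of log2 values, the genes most like each channel and sensor gene were sought among 9905 genes with a mean of at least 100. These points share their libraries, so the correlations are descriptions. For Orai1 they were Ankrd55, Fam102a and Itgb3 (Pearson's r from 0.981 to 0.981), and for Orai2 Dirc2, Ppm1h and Zfp956 (0.939 to 0.949). For Orai3 they were Farsa, Ddx27 and Poldip2 (0.976 to 0.985). Stim1 was closest to Sgms1, Pxk and Ext2 (0.965 to 0.974), and Stim2 to Erc1, Secisbp2l and Bcl11b (0.955 to 0.966).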

How the data were processed

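Thymocytes of 3 TCR transgenic lines at 3 sorted stages were profiled by bulk RNA-seq (26 libraries). Per the labels and the study's methods, the authors used Trimmomatic 0.32 for trimming, Bowtie2 2.3.2 for alignment to mm10 and RSEM 1.2.31 for transcript counts, and normalized with DESeq2. The deposited signal values are normalized counts which the authors scaled by DESeq2's median of ratios, for 46517 symbols, 18280 of them at 0 in every library. Whole reads could not be recovered, since only 59.8% to 62.3% of low values were whole multiples of the most frequent low value, and so no count model was run. Strandedness of the counting is not given in the sources used here. Exons of Itpr3 share 233 bases with the antisense gene Itpr3os, those of Itpr1 181 and 108 bases with 2 unnamed gene models, those of Atp2a2 83 and those of Orai1 7 with 1 each.

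Values were tested with limma 3.58.1 (R 4.3.3, mean-variance trend) on log2(value + 1), which understates changes of low genes, for 16372 genes with at least 10 in at least 2 libraries. A single fit of all 9 groups left 17 residual degrees of freedom, and p-values were Benjamini-Hochberg adjusted within each of 24 comparisons, called below 0.05. Levels between genes were compared per kilobase of exon (GENCODE vM21, GRCm38). The length used was the union of all annotated exons, such as 10.371 kilobases for Stim1 and 5.133 for Stim2. The lengths of the transcripts present are not known here, and shares and rankings between genes depend on this choice. The 10 members, the gene lists and the tests were chosen with earlier results of these data known. All 10 members were named. From the wider list, 2 genes per role with the largest called change in early OT-1 against TG6 were named (1 of them is not reported here), and for each channel and sensor gene the 3 genes of highest correlation.

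Replicate numbers recur across the 3 populations of a line and were fitted as a block. The labels do not say that equal numbers in different populations mark the same mouse, and the late TG6 libraries carry another name stem than the other TG6 libraries. Deviations of same-numbered libraries correlated at 0.106 to 0.340 in F5, 0.0189 to 0.178 in OT-1 and 0.0230 to 0.274 in TG6, against a median of -0.00254 between lines. Every pair was above 0.1 in F5, but only 5 of 9 pairs in OT-1 and 2 of 7 in TG6. A library's deviations correlated best with its own number in 18 of 18 cases in F5, 17 of 18 in OT-1 and 11 of 14 in TG6. Block calls in F5 and most of those in OT-1 stand beside the genes, and all others further below. The block was fitted in all lines at once, so the spread behind each block p-value treats equal numbers as pairs in every line. Leave-one-out fits left out 1 library each. Alternatives were a pseudocount of 5, no filter, scaling to equal totals, fitting only the compared groups, the block, and leaving out each library. Scaling to equal totals moved the median of all genes by up to 0.13 on the log2 scale, downward in OT-1 against both other lines.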

Additional observations from a re-analysis of the deposited data

Results flagged for a closer look

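In 6 cases the change of a gene between stages differed between lines by a direct test of that difference (limma, adjusted p below 0.05). Itpr1 accounted for 4 of them: from early to late OT-1 exceeded TG6 by 2.15 (SE 0.28, limma adjusted p = 0.00012) and F5 by 1.20 (SE 0.26, limma adjusted p = 0.019) on the log2 scale, and from early to mature it exceeded TG6 by 1.64 (SE 0.26, limma adjusted p = 0.00046) and F5 by 1.14 (SE 0.26, limma adjusted p = 0.025). From early to mature, F5 differed from TG6 by -1.20 for Orai3 (SE 0.32, limma adjusted p = 0.035) and by 0.70 for Itpr2 (SE 0.19, limma adjusted p = 0.037). The groups hold 2 or 3 libraries, so single libraries were not tested as outliers.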

How the results depend on the processing

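Each of the 240 values of the 10 genes kept its direction wherever it was called, under every alternative. With a pseudocount of 5 no call changed. Without the filter 7 calls were lost, with total scaling 4 were lost and 8 gained, and with only the compared groups 13 were lost and 16 gained. The replicate block lost 1 call and gained 12 among 150 values, and leaving out libraries lost 80 and gained 16 among 1740. The cause of these changes was not tested. The calls lost or gained with the block in F5 stand beside the genes. Those gained in OT-1 and TG6 are listed here, and the labels tie no replicate number to a mouse in any line. A library's deviations correlated best with its own number in 17 of 18 cases in OT-1 and 11 of 14 in TG6. The block gained 5 calls in OT-1, 2 in TG6 and 2 in differences between OT-1 and F5. In OT-1 they were Orai1 from early to late (0.72, limma adjusted p = 0.0067) and from late to mature (-0.50, limma adjusted p = 0.049), Atp2a3 from early to late (0.26, limma adjusted p = 0.028), Itpr2 from late to mature (-0.34, limma adjusted p = 0.015) and Stim1 from early to mature (0.26, limma adjusted p = 0.013). In TG6 they were Itpr2 (-0.41, limma adjusted p = 0.019) and Itpr3 (0.37, limma adjusted p = 0.014) from late to mature. In the differences they were Orai3 from early to late (0.99, limma adjusted p = 0.048) and Orai1 from early to mature (-1.02, limma adjusted p = 0.036).

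Several counts of called genes moved by over 1.5 times. Without the filter, F5 against TG6 in mature cells went from 1 to 0, and the difference of early to mature changes between F5 and TG6 from 2 to 0. With total scaling, OT-1 against TG6 gave 4 in late and 1 in mature cells, OT-1 against F5 gave 5 in late cells, F5 against TG6 gave 0 in mature cells, and the F5 to TG6 difference of early to mature changes gave 1. With only the compared groups, OT-1 against TG6 gave 5 in late cells, OT-1 against F5 gave 3 in early cells, F5 against TG6 gave 0 in mature cells, mature against late TG6 gave 1, and the F5 to TG6 difference of early to mature changes gave 0. With the replicate block, mature against late gave 5 in TG6 and 5 in OT-1, and both differences of OT-1 from F5 gave 2, and no other count moved as far.

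Leaving out single libraries gave counts from 0 to 2 for late OT-1 against TG6, 0 to 2 for mature OT-1 against TG6, 0 to 1 for early OT-1 against F5, 1 to 3 for early F5 against TG6 and 0 to 1 for mature F5 against TG6. Between stages they ran from 1 to 5 for mature against late TG6, 4 to 7 for mature against early TG6, 3 to 5 for mature against early F5 and 3 to 5 for late against early OT-1. For the differences of changes they ran from 0 to 1 between OT-1 and F5 at both steps, 0 to 1 for late against early between F5 and TG6, and 0 to 2 for mature against early between F5 and TG6. Comparisons between lines at a stage have no paired fit, since the mice differ. Leaving mature TG6 replicate 3 out of the counts of the wider list was chosen after seeing the data.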
